A study of Sus scrofa with 9 samples.

Results

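NR4A2 and NR4A3 are orphan nuclear receptors of the NR4A family, and both were measured among the 4882 annotated transcript positions of a nascent RNA table from pig hearts after a coronary occlusion. They were chosen by gene symbol, and with the measured contrast in view: in ischemic against healthy myocardium NR4A3 stood lower while most immediate early genes stood higher. The 2 members have 1 position each in the table, and both passed the filter on low values (at least 0.5 RPKM, averaged across all 9 libraries), as did 2384 positions in all. NR4A1, the remaining member of the family, was not analysed here.

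Nascent RNA was captured by GRO-seq, in which polymerases already engaged on the DNA extend and label their transcripts in isolated nuclei, from the myocardium of 3 female farm pigs. In every pig an embolization coil had blocked the distal LAD, the artery that feeds the front of the heart, and tissue was taken 24 hours later. Each pig gave an ischemic, a border zone and a healthy sample, which makes 3 groups of 3 libraries. All groups therefore come from hearts with an infarct, and the healthy samples are the uninjured myocardium of the same hearts rather than tissue of other animals. The tissue was minced and digested with collagenase, and nuclei of all the released cells were pooled, so a level is an average over cell types. In such bulk samples fewer cells of a type and less RNA made per cell cannot be told apart. Levels are RPKM, reads per kilobase of gene span (introns and exons together) scaled to the library total, with positions on the pig build susScr3.

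NR4A receptors bind DNA at a site called the NBRE as monomers, at a related palindrome as dimers, and NR4A1 and NR4A2, unlike NR4A3, can also pair with the retinoid X receptors. Their ligand pocket is filled by bulky side chains, so their activity follows mainly from how much of the protein is made. As immediate early genes they are transcribed within minutes of stimuli that raise cAMP, calcium or kinase signalling, largely through CREB and related factors. In cardiac and skeletal muscle they respond to beta-adrenergic stimulation, and in macrophages to inflammatory signals.

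Per the table, NR4A2 (NM_001190276) lies on the minus strand of chromosome 15, from 70671945 to 70677289. Its span covers 5344 bp, of which 2247 bp or 42.0% are exon. NR4A3 (NM_214247) lies on the plus strand of chromosome 1, from 269817145 to 269852707. Its span covers 35562 bp, of which 5078 bp or 14.3% are exon. Introns thus make up most of both spans, and a larger part of that of NR4A3. Where the reads fell within a span is not known. At the same RPKM the longer span of NR4A3 holds more reads. Depending on the library, 1 read was worth 0.0267 to 0.212 RPKM for NR4A2 and 0.00401 to 0.0318 RPKM for NR4A3.

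Library totals were 883656 to 2134087 reads in ischemic, 2187977 to 7005976 in border zone and 2730083 to 6531658 in healthy myocardium, so ischemic values have the widest counting error. The tissue labels were compared with cell type markers, given as summed RPKM per library. Cardiomyocyte markers (11 summed) came to 78.1 to 240 RPKM in ischemic, 166 to 293 in border zone and 342 to 625 in healthy libraries. Macrophage and monocyte markers (11 summed) came to 33.5 to 48.4 RPKM in ischemic, 14.1 to 27.0 in border zone and 1.74 to 3.22 in healthy libraries. Neutrophil markers (6 summed) came to 14.1 to 30.5 RPKM in ischemic, 5.28 to 10.9 in border zone and 0.0995 to 0.323 in healthy libraries, where S100A8, S100A9, S100A12 and MMP9 had no read. Endothelial markers (6 summed) came to 17.4 to 36.5 RPKM in ischemic, 9.65 to 20.1 in border zone and 8.36 to 10.9 in healthy libraries.

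NR4A2 was transcribed at a low level in healthy myocardium and more strongly in the border zone of every pig. Its level was 4.82, 2.79 and 1.48 RPKM in the ischemic samples of pigs 1 to 3, 6.48, 3.39 and 5.13 RPKM in the border zone samples, and 1.10, 0.328 and 1.23 RPKM in the healthy samples. All 3 border zone values lay above all 3 healthy values, and so did all 3 ischemic values, although ischemic pig 3 came close to healthy pig 3. Group means were 3.03 ± 1.68 RPKM in ischemic, 5.00 ± 1.55 RPKM in border zone and 0.885 ± 0.488 RPKM in healthy myocardium (SD, n = 3 each). The order of the means was border zone, ischemic, healthy, and the ischemic and border zone values overlapped.

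Few reads stood behind some of these NR4A2 values. The ischemic samples held 55, 17 and 7 reads, the border zone samples 123, 127 and 60, and the healthy samples 16, 6 and 43. The exact Poisson 95% interval was 0.596 to 3.05 RPKM for ischemic pig 3 and 0.892 to 1.66 RPKM for healthy pig 3, and these intervals overlap. For border zone pig 3 it was 3.92 to 6.61 RPKM, above both. The intervals cover counting error only, since reads copied from 1 molecule cannot be recognised in the table. In ischemic pig 3, 53.2% of counts from 1 to 30 were multiples of 3, against 33.3% for an even spread. Its interval may therefore be too narrow, and the cause of this excess was not tested.

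NR4A3 ran in another order, highest in healthy, intermediate in border zone and lowest in ischemic myocardium. Its level was 3.89, 2.19 and 2.26 RPKM in the ischemic samples of pigs 1 to 3, 7.25, 5.02 and 3.98 RPKM in the border zone samples, and 8.85, 9.30 and 5.18 RPKM in the healthy samples. Within each pig the ischemic value was the lowest and the healthy value the highest. Across pigs the ischemic values overlapped neither of the other groups, while the border zone and healthy values overlapped. Group means were 2.78 ± 0.959 RPKM in ischemic, 5.42 ± 1.67 RPKM in border zone and 7.78 ± 2.26 RPKM in healthy myocardium (SD, n = 3 each). The groups held 455 ischemic, 2476 border zone and 3195 healthy reads of NR4A3, so counting error was small beside the spread between pigs.

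**Figure D1:**
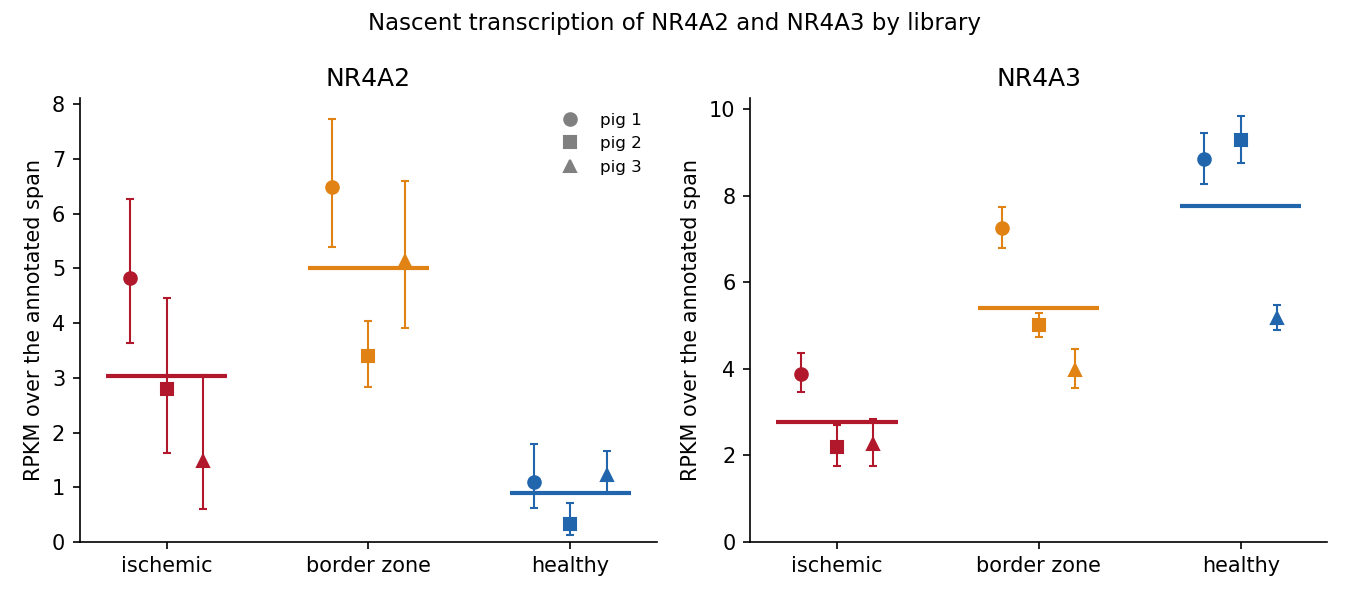
Level of NR4A2 and NR4A3 in RPKM (y axis) by zone (x axis: ischemic, border zone, healthy), with 1 point per pig, exact Poisson 95% counting intervals as thin bars and the group mean as a horizontal line. NR4A2 is highest in the border zone (mean 5.00 RPKM) and lowest in healthy myocardium (0.885 RPKM), whereas NR4A3 is highest in healthy (7.78 RPKM) and lowest in ischemic myocardium (2.78 RPKM).

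Ischemic against healthy myocardium is the contrast by which the genes were chosen, so its values are given as a description without a test. NR4A2 stood 1.68 ± 0.54 higher in ischemic myocardium on the log2(RPKM + 0.1) scale (SE from limma), and the ratio of mean RPKM was 3.42. Within pigs 1 to 3 the ischemic over healthy ratio of NR4A2 was 4.40, 8.51 and 1.20, so the size of the difference varied widely between animals. NR4A3 stood lower by a log2 difference of -1.45 ± 0.35, and the healthy over ischemic ratio of mean RPKM was 2.80. Within pigs 1 to 3 the healthy over ischemic ratio of NR4A3 was 2.28, 4.24 and 2.29. Over all positions tested the median log2 difference of ischemic over healthy was 0.21, and 28.4% of positions had all ischemic values above all healthy ones, as NR4A2 did. For 14.9% the ischemic values all lay below, as for NR4A3.

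In border zone against healthy myocardium NR4A2 rose by 2.49 ± 0.54 on the log2 scale, a fitted 5.61-fold difference (limma, Benjamini-Hochberg adjusted p = 0.0375; 95% interval 1.24 to 3.73). It was higher in 3 of 3 pigs, with border zone over healthy ratios of 5.91, 10.4 and 4.17. Its log2 difference exceeded that of 95.7% of the positions tested, where the median was 0.22. Of all positions 6% passed the test in this comparison and 5.79% rose, and 25.7% had border zone values wholly above the healthy ones. The healthy libraries were also part of the contrast that chose the gene, so this test is not independent of the choice. The call was lost when any 1 of the 6 border zone or healthy libraries was left out, with limma adjusted p of 0.0533 to 0.156 and log2 differences of 1.97 to 2.79. The limma adjusted p was 0.0598 with no filter on low values and 0.0514 with all libraries set to the same median.

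NR4A3 differed less between border zone and healthy myocardium. Its log2 difference was -0.51 ± 0.35 (95% interval -1.32 to 0.30), and the border zone over healthy ratio was 0.820, 0.540 and 0.769 in pigs 1 to 3. The sign was the same in 3 of 3 pigs. The border zone and healthy groups overlapped when the pairing was set aside. With the pig as a block the log2 difference was the same, with an SE of 0.23 in place of 0.35.

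Ischemic against border zone myocardium gave lower values for both genes. For NR4A2 the log2 difference was -0.81 ± 0.54 (95% interval -2.05 to 0.44), which did not pass the test (limma, Benjamini-Hochberg adjusted p = 0.528). The ischemic over border zone ratio of NR4A2 was 0.744, 0.822 and 0.289 in pigs 1 to 3, so it was below 1 in 3 of 3 pigs, while the groups overlapped. For NR4A3 the log2 difference was -0.94 ± 0.35, with ischemic over border zone ratios of 0.536, 0.437 and 0.567, and the ischemic values lay wholly below the border zone values. That was also so for 11.5% of all positions tested. Few positions passed the test in this comparison at all, 1.13% in either direction, 0.168% higher and 0.965% lower in ischemic myocardium. The 3 comparisons share libraries and are not independent of each other.

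The balance between the receptors, taken within each library, differed between healthy myocardium and both injured zones. The genes were chosen by their values in ischemic against healthy myocardium, so a difference in this ratio follows in part from the choice. The ratios are given as a description. The ratio of NR4A3 to NR4A2 RPKM was 0.806, 0.787 and 1.52 in the ischemic samples of pigs 1 to 3, 1.12, 1.48 and 0.776 in the border zone samples, and 8.07, 28.4 and 4.20 in the healthy samples. Both receptors thus had a like read density over their spans in the 6 injured samples, while NR4A3 exceeded NR4A2 in all 3 healthy samples. The spans differ in length (5344 bp for NR4A2 and 35562 bp for NR4A3), so like densities need not mean like rates of transcription. The value of 28.4 rests on 6 NR4A2 reads. The sum of both levels was 3.74 to 8.71 RPKM in ischemic, 8.41 to 13.7 RPKM in border zone and 6.41 to 9.94 RPKM in healthy libraries, and these ranges overlap. Across the 9 libraries the log levels of the genes had a Pearson r of -0.35 and a Spearman rho of -0.38, given as a description because the libraries share pigs and fall into 3 groups.

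**Figure D2:**
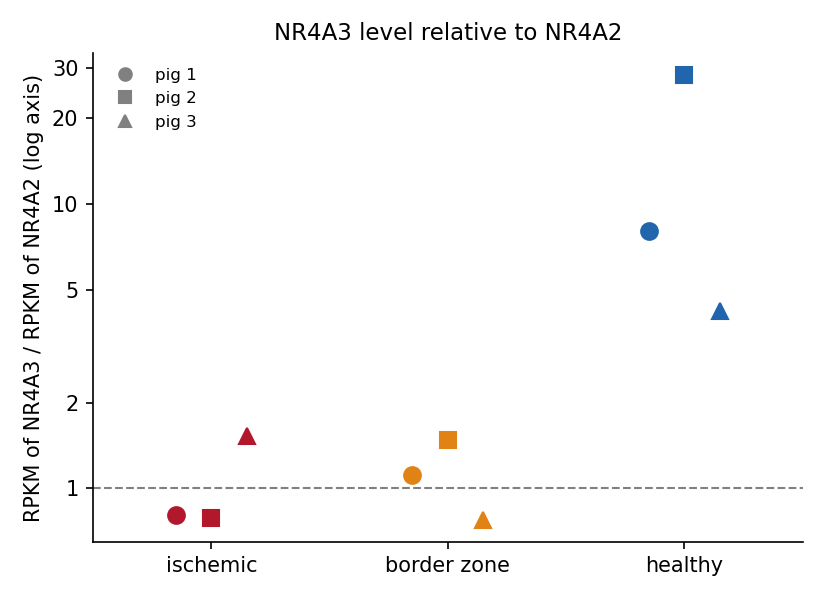
Ratio of NR4A3 to NR4A2 RPKM within each library on a log axis (y) by zone (x: ischemic, border zone, healthy), with 1 point per pig and a dashed line at equal levels. The ischemic ratios lie between 0.787 and 1.52 and the border zone ratios between 0.776 and 1.48, while the healthy ratios lie between 4.20 and 28.4. The genes were chosen by ischemic against healthy values, so the ratios are a description.

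Between healthy and injured zones, macrophage and neutrophil marker sums differed in the direction of NR4A2, and cardiomyocyte sums in that of NR4A3. Macrophage sums were 14.1 to 27.0 RPKM in border zone and 33.5 to 48.4 in ischemic libraries, while mean NR4A2 was 5.00 and 3.03 RPKM. Neutrophil sums were also higher in ischemic (14.1 to 30.5 RPKM) than in border zone libraries (5.28 to 10.9). Endothelial (4 of 6 tested) and fibroblast markers (3 of 7) also rose in ischemic against healthy myocardium, where 18.5% of all positions rose. With 1 library left out at a time these counts were 0 to 4 endothelial and 1 to 3 fibroblast markers. With the same median per library they were 2 and 1. VCAN, a fibroblast marker among those called, averaged 0.461 RPKM in healthy samples and so passed the filter through the injured zones. Of 8 macrophage and monocyte markers tested, 8 rose in ischemic against healthy and 6 in border zone against healthy myocardium, where NR4A2 was also higher. Of the 8, 7 averaged under 0.5 RPKM in healthy samples and so passed the filter through the injured zones, where they were high, which by itself favours a count of higher markers. Of all positions 18.5% and 5.79% rose in these comparisons. The 6 became 3 without border zone pig 1 or pig 3, and 4 without healthy pig 2. Of 11 cardiomyocyte markers tested, 7 fell in ischemic against healthy myocardium, where NR4A3 was also lower. Of all positions 9.1% fell there. With 1 library left out at a time the 7 became 4 in 8 of 9 fits and 9 without ischemic pig 2. In border zone against healthy myocardium limma called 0 of the 11, with 6 lower at an unadjusted p below 0.05 and 5 called lower by limma-voom. Of all 2384 positions, 510 were below that unadjusted p in either direction, and limma-voom called 39 lower. In ischemic against border zone 2 of the 11 markers fell, and 0 to 3 did so with 1 library left out. In the ischemic samples of pigs 1 to 3 macrophage markers summed to 42.7, 33.5 and 48.4 RPKM, while the NR4A2 levels there were 4.82, 2.79 and 1.48 RPKM, so the sample richest in those markers had the least NR4A2. In the border zone samples macrophage markers summed to 27.0, 14.1 and 24.1 RPKM, against NR4A2 levels of 6.48, 3.39 and 5.13 RPKM, and there the pigs fell in the same order by both. In the healthy samples macrophage markers summed to 3.22, 2.09 and 1.74 RPKM, against NR4A2 levels of 1.10, 0.328 and 1.23 RPKM. There the sample poorest in those markers had the most NR4A2. Cardiomyocyte markers summed to 152, 240 and 78.1 RPKM in the ischemic samples, against NR4A3 levels of 3.89, 2.19 and 2.26 RPKM. Here the sample richest in cardiomyocyte markers had the least NR4A3. In the border zone samples cardiomyocyte markers summed to 197, 293 and 166 RPKM, against NR4A3 levels of 7.25, 5.02 and 3.98 RPKM. In the healthy samples they summed to 625, 397 and 342 RPKM, against NR4A3 levels of 8.85, 9.30 and 5.18 RPKM. In both zones the sample poorest in those markers had the least NR4A3. The part of cell composition in the results was not tested.

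Among nuclear receptors, NR4A3 ranked high by mean RPKM in every zone and NR4A2 in the injured zones. Spans differ between genes, so an order by RPKM need not be an order of transcription rates. Of 24 receptor genes on chromosomes in the table, NR4A3 ranked the 1st in healthy and border zone myocardium by mean RPKM and the 3rd in ischemic myocardium. NR4A2 ranked the 2nd in ischemic and border zone but only the 10th in healthy myocardium. ESRRA, an orphan receptor that drives mitochondrial and fatty acid oxidation genes, was also among the 3 with the highest mean in every zone, at 3.32 ± 1.38 RPKM in ischemic, 3.64 ± 1.21 in border zone and 4.06 ± 0.383 in healthy myocardium. In ischemic myocardium ESRRA, NR4A2 and NR4A3 lay within 1 SD of each other, and so did NR4A3 and NR4A2 in the border zone. NR2F2, PPARD and RXRB came next in ischemic myocardium, at 2.39, 2.34 and 2.19 RPKM. Their ranges overlapped those of both NR4A genes, so the ischemic ranks are not clearly apart. In healthy myocardium all NR4A3 values (5.18 to 9.30 RPKM) lay above all ESRRA values (3.62 to 4.34 RPKM).

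**Figure D3:**
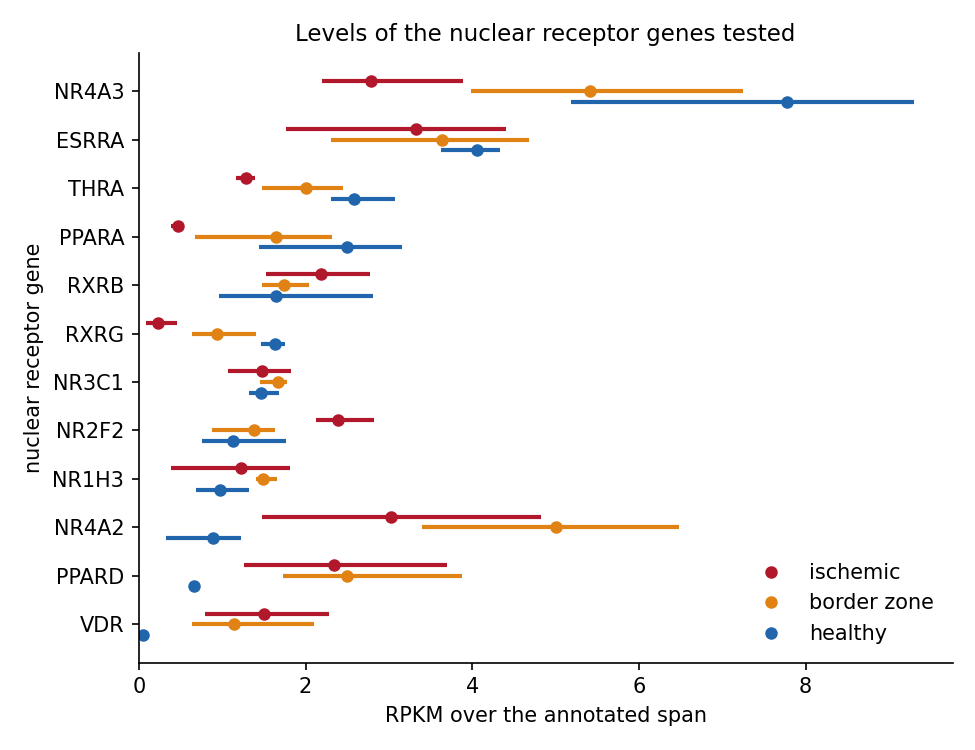
Level in RPKM (x axis) of the nuclear receptor genes tested (y axis, ordered by healthy mean), with the mean of 3 pigs as a point and the lowest to highest pig as a line, for ischemic, border zone and healthy myocardium. NR4A3 leads in healthy myocardium at 7.78 RPKM, and NR4A2 moves up to the 2nd place in border zone and ischemic myocardium at 5.00 and 3.03 RPKM.

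Other receptors moved in both directions. Of 45 listed nuclear receptors outside the NR4A family, 22 were in the table and 10 were tested; 2 rose and 3 fell in ischemic against healthy myocardium, where 27.6% of all positions passed, 18.5% as higher and 9.1% as lower. VDR, the vitamin D receptor, rose by 3.29 ± 0.52 on the log2 scale (limma, Benjamini-Hochberg adjusted p = 0.0033), with 1.50 RPKM in ischemic, 1.15 in border zone and 0.0513 in healthy myocardium. It passed the filter through the injured zones, where it was high, so its call and its place in the count of 2 are no independent sign of direction. PPARD rose by 1.54 ± 0.42 (limma adjusted p = 0.0278), while PPARA, the fatty acid sensor of oxidative tissues, fell by 2.13 on the log2 scale (SE 0.46, limma adjusted p = 0.0132). THRA, a thyroid hormone receptor, fell by 0.94 on the log2 scale (SE 0.23, limma adjusted p = 0.0199). With 1 library left out at a time, the PPARD call was lost in 5 of 9 fits and the THRA call in 3. In border zone against healthy myocardium VDR rose (2.85 ± 0.52, limma adjusted p = 0.0196), a call lost in 5 of the 9 fits that each left out 1 library.

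Of the retinoid X receptors, the dimer partners of NR4A1 and NR4A2, 2 of 3 were in the table. RXRG, also counted among the receptors above, fell in ischemic against healthy myocardium by 2.53 on the log2 scale (SE 0.43, limma adjusted p = 0.00507), with 0.234 RPKM in ischemic, 0.933 in border zone and 1.64 in healthy myocardium. RXRB had 2.19, 1.75 and 1.65 RPKM in the same order and did not pass.

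The listed cAMP, calcium and kinase signalling genes that passed the test were lower in ischemic myocardium. The list holds phosphodiesterases and regulatory subunits beside receptors and kinases, so its counts give no direction for the signal itself. Of 52 listed cAMP, calcium and kinase genes 15 were tested, with 0 higher and 4 lower in ischemic against healthy myocardium, where 18.5% of all positions rose and 9.1% fell. At an unadjusted p below 0.05 limma gave 1 higher and 5 lower, and limma-voom called 1 higher and 3 lower. Of all 2384 positions, 965 were below that unadjusted p in either direction, and limma-voom called 532 higher and 217 lower. The median log2 difference of the 15 genes was -0.42, against 0.21 over all positions. PDE3A, a cAMP phosphodiesterase of cardiac muscle, had 1.37 ± 0.612 RPKM in ischemic, 5.01 ± 1.02 in border zone and 12.1 ± 1.67 in healthy myocardium (SD, n = 3 each). It fell by 3.11 on the log2 scale in ischemic against healthy myocardium (SE 0.31, limma adjusted p = 0.00063), with all ischemic samples below all others. Like NR4A3 it ran in the order healthy, border zone, ischemic, but over a wider range. CAMK2D, a calcium-dependent kinase of cardiomyocytes, fell by 2.19 on the log2 scale (SE 0.31, limma adjusted p = 0.0025). PRKAR1A, a regulatory subunit of protein kinase A, fell by 1.19 on the log2 scale (SE 0.23, limma adjusted p = 0.00809). ADRB1, the main cardiac beta-adrenergic receptor, had 1 read in ischemic and 45 reads in healthy libraries, a pooled healthy over ischemic ratio of 14.7 with an exact 95% counting interval of 2.52 to 595, and it also passed the test (limma adjusted p = 0.0166), though not without ischemic pig 3, healthy pig 2 or healthy pig 3, nor by limma-voom. None of the 4 passed in border zone against healthy myocardium. There limma gave 0 higher and 3 lower of the 15 at an unadjusted p below 0.05, and limma-voom called 1 lower. Of all 2384 positions, 510 were below that unadjusted p in either direction, and limma-voom called 39 lower. In ischemic against border zone myocardium PDE3A alone passed (-1.85 ± 0.31, limma adjusted p = 0.0448), a call lost in 8 of the 9 fits that left out 1 library. Cardiomyocyte markers fell beside these genes, and the part of cell composition was not tested.

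Some genes induced through CREB, the factor that also drives the NR4A genes, were higher in the injured zones. Of 24 listed genes 6 besides the NR4A genes were tested. FOS and DUSP1 are on the immediate early list too, so their values in ischemic against healthy myocardium belong to the choice of the NR4A genes and are not tested. Of the other 4, 3 rose in ischemic against healthy myocardium (AREG, RGS2 and INHBA), where 18.5% of all positions rose. In border zone against healthy myocardium 3 of the 6 rose (AREG, FOS and RGS2), where 5.79% of all positions did. The healthy libraries were part of the choice, so the border zone test of FOS is not independent of it. The medians of the 6 log2 differences were 1.97 and 1.61, against 0.21 and 0.22 over all positions. AREG and INHBA averaged under 0.5 RPKM in healthy samples and passed the filter through the injured zones, so their direction was favoured by the filter.

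AREG, the EGF receptor ligand amphiregulin, had 3.34 ± 1.47 RPKM in ischemic, 3.33 ± 0.451 in border zone and 0.0557 ± 0.0267 in healthy myocardium (SD, n = 3 each). It rose by 4.39 ± 0.32 in ischemic (limma adjusted p = 0.00026) and by 4.47 ± 0.32 in border zone myocardium (limma adjusted p = 0.000327), both against healthy. RGS2, a brake on G protein signalling, rose by 2.46 ± 0.49 in ischemic (limma adjusted p = 0.00967) and by 2.25 ± 0.49 in border zone myocardium (limma adjusted p = 0.0375), both against healthy. The border zone call of RGS2 was lost in 7 of the 9 fits that each left out 1 library. INHBA, an activin subunit, rose in ischemic against healthy myocardium by 1.47 ± 0.45 (limma adjusted p = 0.0422), a call also lost in 7 of those 9 fits. FOS, an AP-1 subunit, had 62.0 ± 19.3 RPKM in ischemic, 52.1 ± 21.0 in border zone and 7.13 ± 0.545 in healthy myocardium. It rose in border zone against healthy myocardium by 2.77 ± 0.37 (limma adjusted p = 0.00478), a test not independent of the choice. DUSP1, a phosphatase of MAP kinases, had 61.7 ± 10.3 RPKM in ischemic, 48.2 ± 13.6 in border zone and 25.5 ± 11.4 in healthy myocardium. PDE4B, another cAMP phosphodiesterase, had 12.3, 13.0 and 9.78 RPKM in ischemic, border zone and healthy myocardium and did not pass. The highest group mean of NR4A2 lay in an injured zone, as for these 6 genes, and that of NR4A3 in healthy myocardium. BDNF, a gene of the list that was too low to be tested, also had its highest mean in healthy myocardium. Its means were 0.0130 RPKM in ischemic, 0.0643 in border zone and 0.244 in healthy myocardium, where single samples held 0 to 0.401 RPKM.

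Against the other immediate early genes, NR4A2 stood in the upper part and NR4A3 at the lower end when injured zones were compared with healthy myocardium. This list was part of the choice, so its values in ischemic against healthy myocardium are a description without a test. Its border zone tests use the same healthy libraries and are not independent of the choice. Of 35 listed genes 17 were in the table, and 13 were tested besides NR4A2 and NR4A3. The median of these 13 log2 differences in ischemic against healthy myocardium was 1.35, with FOS (3.05), MYC (2.55) and NFKBIA (2.23) at the top. In border zone against healthy myocardium their median was 0.98, and FOS alone of the 13 passed, a share near the 5.79% of all positions that rose. With the pig as a block 3 of the 13 were called, and 6 by limma-voom, where 192 and 257 of all 2384 positions rose. Ordered by log2 difference among 15 genes, NR4A2 was the 4th in ischemic against healthy and the 2nd, after FOS, in border zone against healthy myocardium. NR4A3 was the last of the 15 in all 3 comparisons. These ranks were the same under both other scalings.

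Few genes of this list were below their healthy level. In ischemic against healthy myocardium NR4A3 was the only 1 of 15 with a negative log2 difference, but JUN and KLF2 also turned negative with all libraries set to the same median (-0.04 and -0.09) or quantile normalized (-0.47 and -0.43). With the same median per library the median log2 difference of all positions was 0.00115 in place of 0.21, and NR4A3 stood at -1.67. In border zone against healthy myocardium JUN, an AP-1 subunit, was the other, at -0.23 ± 0.30. Its level was 34.8 ± 14.3 RPKM in ischemic, 25.0 ± 2.83 in border zone and 29.4 ± 2.75 in healthy myocardium. By group mean, 11 of the 15 were highest in ischemic myocardium, 3 in the border zone (KLF2, KLF4 and NR4A2) and 1, NR4A3, in healthy myocardium. For KLF2 and KLF4, flow and stress responsive zinc finger factors, the ischemic and border zone groups overlapped. In ischemic against border zone myocardium NR4A2 and NR4A3 were the 14th and the 15th of the 15 under all 3 scalings, while the number of genes below 0 was 4, 3 with the same median and 11 with quantile normalization.

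**Figure D4:**
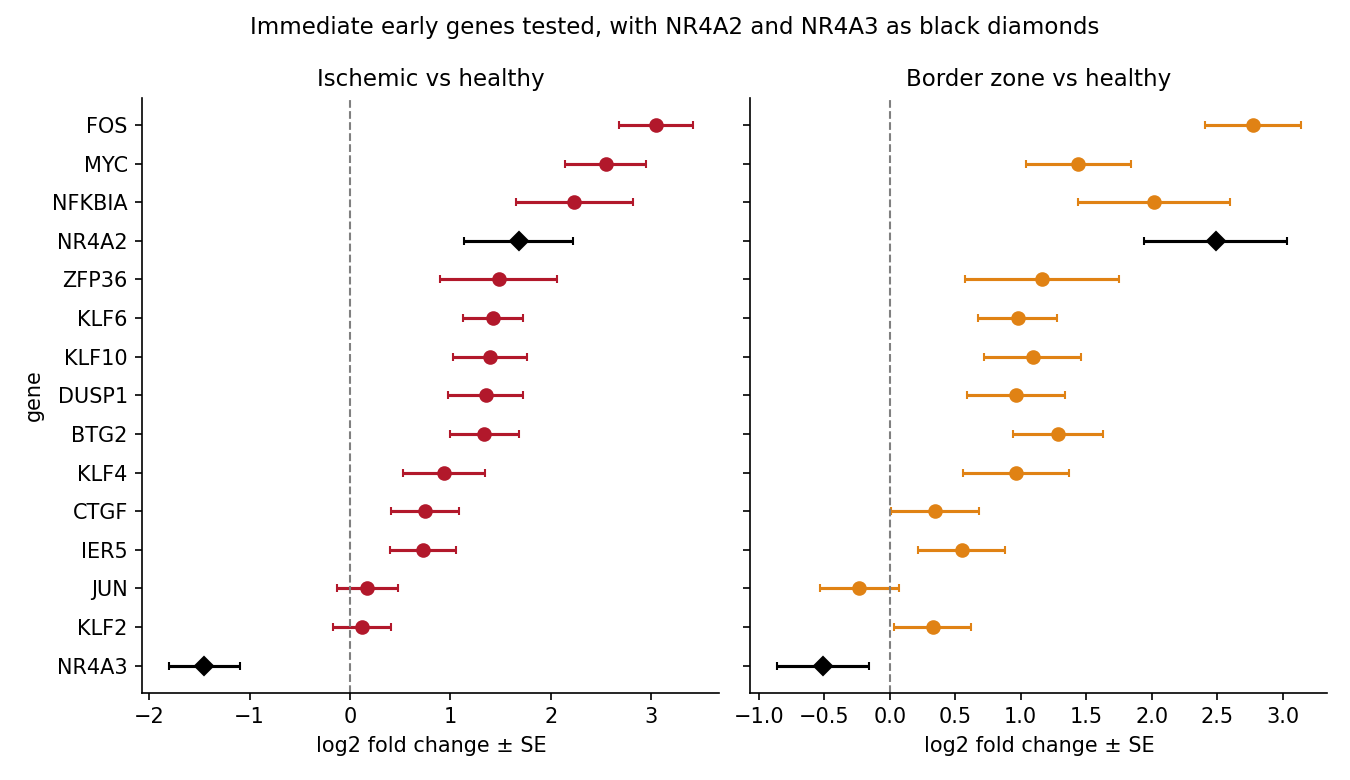
Log2 difference (x axis, limma fit, with SE) of NR4A2, NR4A3 and 13 other immediate early genes (y axis) in ischemic against healthy and in border zone against healthy myocardium. NR4A2 lies near the upper end in both (1.68 and 2.49), and NR4A3 is the lowest gene in both (-1.45 and -0.51).

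Genes reported as NR4A targets in other species, mostly mouse and rat, were tested for 7 of 19 listed. In ischemic against healthy myocardium 0 rose and 3 fell, against 18.5% and 9.1% of all positions. Limma gave 0 higher and 4 lower at an unadjusted p below 0.05, and limma-voom called 0 and 3. Of all 2384 positions, 965 were below that unadjusted p in either direction, and limma-voom called 532 higher and 217 lower. PGAM2, muscle phosphoglycerate mutase, fell by 3.17 on the log2 scale (SE 0.78, limma adjusted p = 0.0208), on 5 ischemic against 91 healthy reads. SLC2A4, the insulin-responsive glucose transporter, fell by 2.57 on the log2 scale (SE 0.69, limma adjusted p = 0.0278). ENO3, muscle enolase, fell by 2.13 on the log2 scale (SE 0.67, limma adjusted p = 0.0467). Leaving out 1 library at a time gave 0 to 3 calls for this list, with 0 without healthy pig 1 and 1 without ischemic pig 1, ischemic pig 3, healthy pig 2 or healthy pig 3. All 3 are glucose handling genes of striated muscle and moved with the cardiomyocyte markers, and the part of cell composition was not tested. GYS1, a glycogen synthase on the same list, did not fall (0.03 ± 0.29, limma adjusted p = 0.947). It had 4.74 RPKM in ischemic and 4.41 RPKM in healthy myocardium. VCAM1, an adhesion molecule of endothelium, and CCND2, a cyclin, were not called, with log2 differences of 0.57 ± 0.30 and 0.01 ± 0.29 in ischemic against healthy myocardium.

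The levels of some genes followed each receptor closely over the 9 libraries. By Pearson r of log2(RPKM + 0.1) among 2014 genes, those most like NR4A2 were ADAP2 (r = 0.99), TLR6 (0.93), IL10 (0.93), HTT (0.93) and PTBP3 (0.92). IL10, an anti-inflammatory cytokine, had 1.87 ± 1.01 RPKM in ischemic, 1.89 ± 0.762 in border zone and 0.241 ± 0.211 in healthy myocardium, and TLR6, a receptor for bacterial lipopeptides, had 1.69 ± 0.762, 2.02 ± 0.528 and 0.354 ± 0.318 RPKM. ADAP2, TLR6 and IL10 averaged under 0.5 RPKM in healthy samples and passed the filter through the injured zones. The filter thus favoured genes that were low in healthy myocardium, as NR4A2 was. Those most like NR4A3 included DHRS11 (0.97), TMED7 (0.93), PMVK (0.93) and TSPAN3 (0.91). DHRS11, a short-chain dehydrogenase, had 3.55 ± 0.551 RPKM in ischemic, 5.27 ± 0.798 in border zone and 5.91 ± 1.17 in healthy myocardium. The genes named have the highest r of many, over libraries that share pigs, zones and depth, so the r values are a description.

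No other gene of the table lay within 1 Mb of NR4A2, and 4 lay within 1 Mb of NR4A3. These were ERP44, SEC61B, ALG2 and TGFBR1, at 225236, 594466, 601471 and 672073 bp. In ischemic against healthy myocardium their log2 differences were 0.18, 0.68, 0.16 and 0.49, and none passed the test (limma adjusted p 0.206 to 0.676). All were of the sign opposite to NR4A3, but the median over all positions tested was also positive, at 0.21.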

How the data were processed

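Per the submitters' processing notes the reads were aligned with Bowtie to susScr3, and the authors deposited 1 table of RPKM per annotated position. For the counter, the strand setting and the handling of duplicates, the sources used here state nothing. Library totals were recovered from the values, with the smallest nonzero product of RPKM and span in a library taken as 1 read. With these totals 100% of nonzero values were whole reads within 0.01. The totals were fitted to the same values, so this is no independent check, and all read counts rest on that choice. Counts of 1 to 30 were multiples of 3 in 32.8% to 53.2% of cases per library, against 33.3% for an even spread.

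Values were taken to log2(RPKM + 0.1), which understates changes of low genes, and the 2384 positions averaging 0.5 RPKM or more were fitted with limma 3.58.1 (R 4.3.3; 3 groups, 9 libraries, eBayes with trend and robust settings), 2-sided, with Benjamini-Hochberg adjustment per comparison at 0.05. Tables used Python 3.11.15. Symbols came from RefSeq accessions. A gene was represented by its longest position on a chromosome with at least 50% of its longest exon length, a rule chosen after the data were seen, because the 548 positions on unplaced scaffolds held no read. Members and gene lists were chosen with earlier results of these data known. Named genes are the members, the 5 genes most like each, and up to 5 passing genes per list by fold, or else the 2 with the highest mean. Some genes that this rule names are not reported here.

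Samples of the same number come from the same pig per the labels, so they are paired. Deviations of paired libraries correlated at 0.126 to 0.179 between ischemic and border zone, at -2.17e-05 to 0.0707 between ischemic and healthy, and at -0.037 to 0.121 between border zone and healthy. Each pig gave 1 library per zone. The fit was checked on simulated data, and the alternatives were the pseudocount, the filter, 2 scalings, the pig as a block, limma-voom on recovered reads, the groups in the fit, the row per gene and each library left out.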

Additional observations from a re-analysis of the deposited data

How the results depend on the processing

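The signs of all member differences held under every alternative run. Leaving out 1 library at a time gave log2 differences of 1.16 to 2.10 (NR4A2) and -1.72 to -1.30 (NR4A3) in ischemic against healthy, 1.97 to 2.79 (NR4A2) and -0.78 to -0.31 (NR4A3) in border zone against healthy, and -1.21 to -0.39 (NR4A2) and -1.20 to -0.72 (NR4A3) in ischemic against border zone myocardium. The NR4A2 border zone call (2.49) was lost with no filter (2.49, limma adjusted p = 0.0598) and with the same median per library (2.23, limma adjusted p = 0.0514). It held with the pig as a block (limma adjusted p = 0.0252) and by limma-voom (2.42, adjusted p = 0.0061).

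Counts of positions called depended more on the settings. Ischemic against healthy gave 659, but 346 with a filter at 2 RPKM and 362 to 698 with 1 library left out (362 without healthy pig 2). Its split of 442 higher and 217 lower became 337 and 295 with the same median and 249 and 251 with quantile normalization. Border zone against healthy gave 143, but 86 with a pseudocount of 0.5, 95 with no filter, 76 with a filter at 2 RPKM, 84 with the same median, 85 with quantile normalization, 296 by limma-voom and 36 to 174 with 1 library left out (36 without border zone pig 1). Ischemic against border zone gave 27 (373 at an unadjusted p below 0.05), but 10 with a pseudocount of 0.5, 3 with no filter, 8 with the same median, 5 with quantile normalization, 92 by limma-voom, 1 with the 2 groups alone and 0 to 39 with 1 library left out. With the pig as a block the counts were 752, 205 and 29. The causes were not tested. Depth limits NR4A2 in ischemic pig 3 (7 reads) and healthy pig 2 (6 reads).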
